A study of Mus musculus with 71 samples.

Results

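Striatal projection neurons make up most of the neurons of the striatum, the nucleus that lies beneath the frontal cortex and beside the piriform cortex. A list of 8 genes that mark these neurons was followed through bulk RNA sequencing of dissected mouse brain: Drd1, Tac1, Drd2, Adora2a, Ppp1r1b, Adcy5, Pde10a and Rgs9. The genes were taken by name from the 55416 gene identifiers of the count table, and all 8 were found and were measured in all 71 libraries. They were read as a measure of neighbouring striatal tissue in the cortical dissections, and of how evenly it was spread over the treatments.

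The animals were C57BL/6J mice, and their tissue is labelled as mixed brain tissue, so all cell types of a dissection were sequenced together. Burned mice had a brass rod 19 mm wide, heated above 90 °C, held on the right dorsal flank for 10 s, which made a full-thickness burn of 7 to 8% of the body surface. Excision mice lost the skin inside a 12 mm template on the medial posterior back, and sham mice were shaved without injury. Every mouse of all 3 treatments received isoflurane and buprenorphine at 0.1 mg/kg, with paracetamol at 1 mg/mL for 5 days afterwards. The piriform cortex gave 5 burn, 4 excision and 5 sham libraries, all from a batch called batch 3. The frontal cortex gave 10 burn, 10 excision and 8 sham libraries, and the hippocampus gave 10 burn, 10 excision and 9 sham libraries, each divided between batch 1 and batch 2. In the frontal cortex replicates 1 to 5 belong to batch 1 and the higher numbers to batch 2, where the sham group has 3 libraries. Age, time after injury and whether 1 mouse gave several regions do not appear in these labels, so p-values measure the spread between these libraries.

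In the striatum, dopamine reaches 2 intermingled classes of projection neuron. Direct pathway neurons carry the dopamine D1 receptor (Drd1) and make substance P from the tachykinin precursor Tac1, and D1 receptors raise cyclic AMP. Indirect pathway neurons carry the dopamine D2 receptor (Drd2), which lowers cyclic AMP, and an adenosine receptor (Adora2a), which raises it. Both classes share Ppp1r1b (DARPP-32, an inhibitor of protein phosphatase 1 that is switched on by cyclic AMP), Adcy5 (the main adenylyl cyclase of the striatum), Pde10a (a phosphodiesterase that breaks down cyclic nucleotides) and Rgs9 (a regulator that shortens G protein signals). Drd1, Tac1, Ppp1r1b, Adcy5 and Pde10a are also expressed at lower levels by some cortical and hippocampal cells, so a low reading does not by itself point to striatum.

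Several libraries stood apart or carried conflicting labels. Library totals ran from 6.65 M to 87.8 M counts (median 57.0 M, M standing for 1e6 counts), and 4 hippocampus libraries of batch 1 held under 10 M. For 4 libraries the title names another treatment than the treatment field, which was followed here: frontal cortex burn replicates 7 and 8 (titled sham), frontal cortex excision replicate 7 (titled burn) and piriform cortex sham replicate 2 (titled excision). The piriform titles also say frontal cortex, while their tissue fields say piriform cortex. A list of 6 hippocampal neuron markers summed to 55.9 to 70.9 CPM (counts scaled to a library total of 1e6) in the 9 piriform burn and excision libraries and to 429 CPM in piriform sham replicate 1, against 315 to 651 CPM in the hippocampus libraries.

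The promoters of the 3 genes whose levels are followed most closely below are shown because the genes moved together from library to library. Sequences are RefSeq windows on GRCm38.p6 from 250 bases upstream to 50 bases downstream of a transcription start, written 5′ to 3′ on the gene's strand, and such windows were given for 6 of the 8 genes (8 windows in all). Capitals mark matches, on either strand, to GGGCGG (a GC box), CACGTG (an E-box) or TGACG (the core of the cyclic AMP response element).
Drd1 (chr13:54055609-54055908, minus strand): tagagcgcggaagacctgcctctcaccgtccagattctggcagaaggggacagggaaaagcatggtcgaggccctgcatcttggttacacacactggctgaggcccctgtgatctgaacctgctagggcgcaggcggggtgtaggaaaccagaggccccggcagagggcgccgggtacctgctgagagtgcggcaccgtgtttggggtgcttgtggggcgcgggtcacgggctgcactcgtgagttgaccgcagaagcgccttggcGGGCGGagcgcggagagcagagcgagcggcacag
Drd2 (chr9:49340153-49340452, plus strand): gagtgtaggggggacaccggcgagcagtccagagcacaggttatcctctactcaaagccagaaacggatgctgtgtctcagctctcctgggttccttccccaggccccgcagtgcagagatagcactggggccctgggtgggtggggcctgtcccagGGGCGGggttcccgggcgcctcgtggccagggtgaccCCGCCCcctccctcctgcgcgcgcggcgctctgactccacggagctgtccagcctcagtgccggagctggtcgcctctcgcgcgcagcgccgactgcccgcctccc
Tac1 (chr6:7554811-7555110, plus strand): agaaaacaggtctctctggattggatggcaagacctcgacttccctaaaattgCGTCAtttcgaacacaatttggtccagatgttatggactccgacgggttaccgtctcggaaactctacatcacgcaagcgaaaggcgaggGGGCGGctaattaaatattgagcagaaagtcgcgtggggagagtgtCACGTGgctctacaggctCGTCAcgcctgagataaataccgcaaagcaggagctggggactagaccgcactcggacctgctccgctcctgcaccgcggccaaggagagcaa
All 8 member windows held GGGCGG, which 35.7% of 32851 RefSeq windows of the same 300 bases also hold. TGACG (20.8% of all windows) and CACGTG (7.15%) were found in the Tac1 window alone among the members, and TATAAA (13.6%) in the Rgs9 window alone. The full element TGACGTCA, present in 1.79% of all windows, was in none of the 8. These matches describe letters in the windows and do not locate a binding site.

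The 8 genes lie on 7 chromosomes, so they do not share a locus. On GRCm38 with the GENCODE M21 annotation, Drd1 (ENSMUSG00000021478) spans chr13:54051183-54055705 on the minus strand and Tac1 (ENSMUSG00000061762) spans chr6:7554879-7565834 on the plus strand. Drd2 (ENSMUSG00000032259) spans chr9:49340627-49408177 and Adora2a (ENSMUSG00000020178) spans chr10:75316877-75334784, both on the plus strand. Ppp1r1b (ENSMUSG00000061718) spans chr11:98348404-98357796 on the plus strand, and Rgs9 (ENSMUSG00000020599) lies on the same chromosome at chr11:109225355-109298129 on the minus strand. Adcy5 (ENSMUSG00000022840) spans chr16:35154877-35305738 and Pde10a (ENSMUSG00000023868) spans chr17:8525372-8986648, both on the plus strand. Counts are over whole genes, exons and untranslated regions together. The antisense transcript 1700003D09Rik shares 460 exonic bases with Ppp1r1b, and had 1190 counts over all libraries against 658077 for Ppp1r1b.

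The levels of all 8 genes spanned a wider range between libraries of the same cortical dissection than between hippocampus libraries. Values are CPM after TMM scaling over all 71 libraries, a scaling that corrects library totals for differences in composition. Because these are bulk samples, fewer cells of a type and less RNA per cell cannot be told apart.

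Drd1, the direct pathway receptor, ran from 6.98 to 66.2 CPM in the piriform cortex (median 15.4), from 5.20 to 80.5 in the frontal cortex (median 28.5) and from 2.10 to 8.36 in the hippocampus (median 4.96). Tac1, its neuropeptide partner, ran from 3.62 to 51.9 CPM in the piriform cortex (median 12.3), from 13.2 to 95.8 in the frontal cortex (median 35.2) and from 6.41 to 15.4 in the hippocampus (median 9.11). The highest cortical library exceeded the lowest of its region 9.48-fold in the piriform and 15.5-fold in the frontal cortex for Drd1, and 14.3-fold and 7.26-fold for Tac1. The hippocampus libraries spanned only 3.99-fold for Drd1 and 2.40-fold for Tac1.

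The indirect pathway receptors varied most. Drd2 ran from 1.42 to 123 CPM in the piriform cortex (median 16.4), from 1.15 to 84.4 in the frontal cortex (median 26.4) and from 2.26 to 6.75 in the hippocampus (median 3.08). Adora2a ran from 1.86 to 133 CPM in the piriform cortex (median 20.1), from 2.56 to 104 in the frontal cortex (median 29.5) and from 0.858 to 6.75 in the hippocampus (median 1.71). The highest library exceeded the lowest 86.7-fold for Drd2 in the piriform cortex and 73.2-fold in the frontal cortex, against 2.98-fold in the hippocampus. For Adora2a the same ratios were 71.4-fold, 40.4-fold and 7.87-fold. The lowest cortical libraries therefore held less Drd2 than the median hippocampus library.

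The shared signalling genes had a higher floor. Ppp1r1b ran from 93.3 to 659 CPM in the piriform cortex (median 171), from 36.0 to 477 in the frontal cortex (median 179) and from 35.4 to 88.2 in the hippocampus (median 55.7). Adcy5 ran from 151 to 622 CPM in the piriform cortex (median 222), from 144 to 590 in the frontal cortex (median 277) and from 105 to 164 in the hippocampus (median 144). The cyclase thus spanned 4.13-fold, 4.09-fold and 1.56-fold in the 3 regions, the narrowest range of the 8 genes in each. Pde10a ran from 33.3 to 269 CPM in the piriform cortex (median 84.4), from 27.5 to 319 in the frontal cortex (median 123) and from 25.9 to 59.7 in the hippocampus (median 44.8). Rgs9 ran from 9.33 to 150 CPM in the piriform cortex (median 29.8), from 11.2 to 126 in the frontal cortex (median 53.4) and from 9.03 to 18.2 in the hippocampus (median 12.3).

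**Figure D1:**
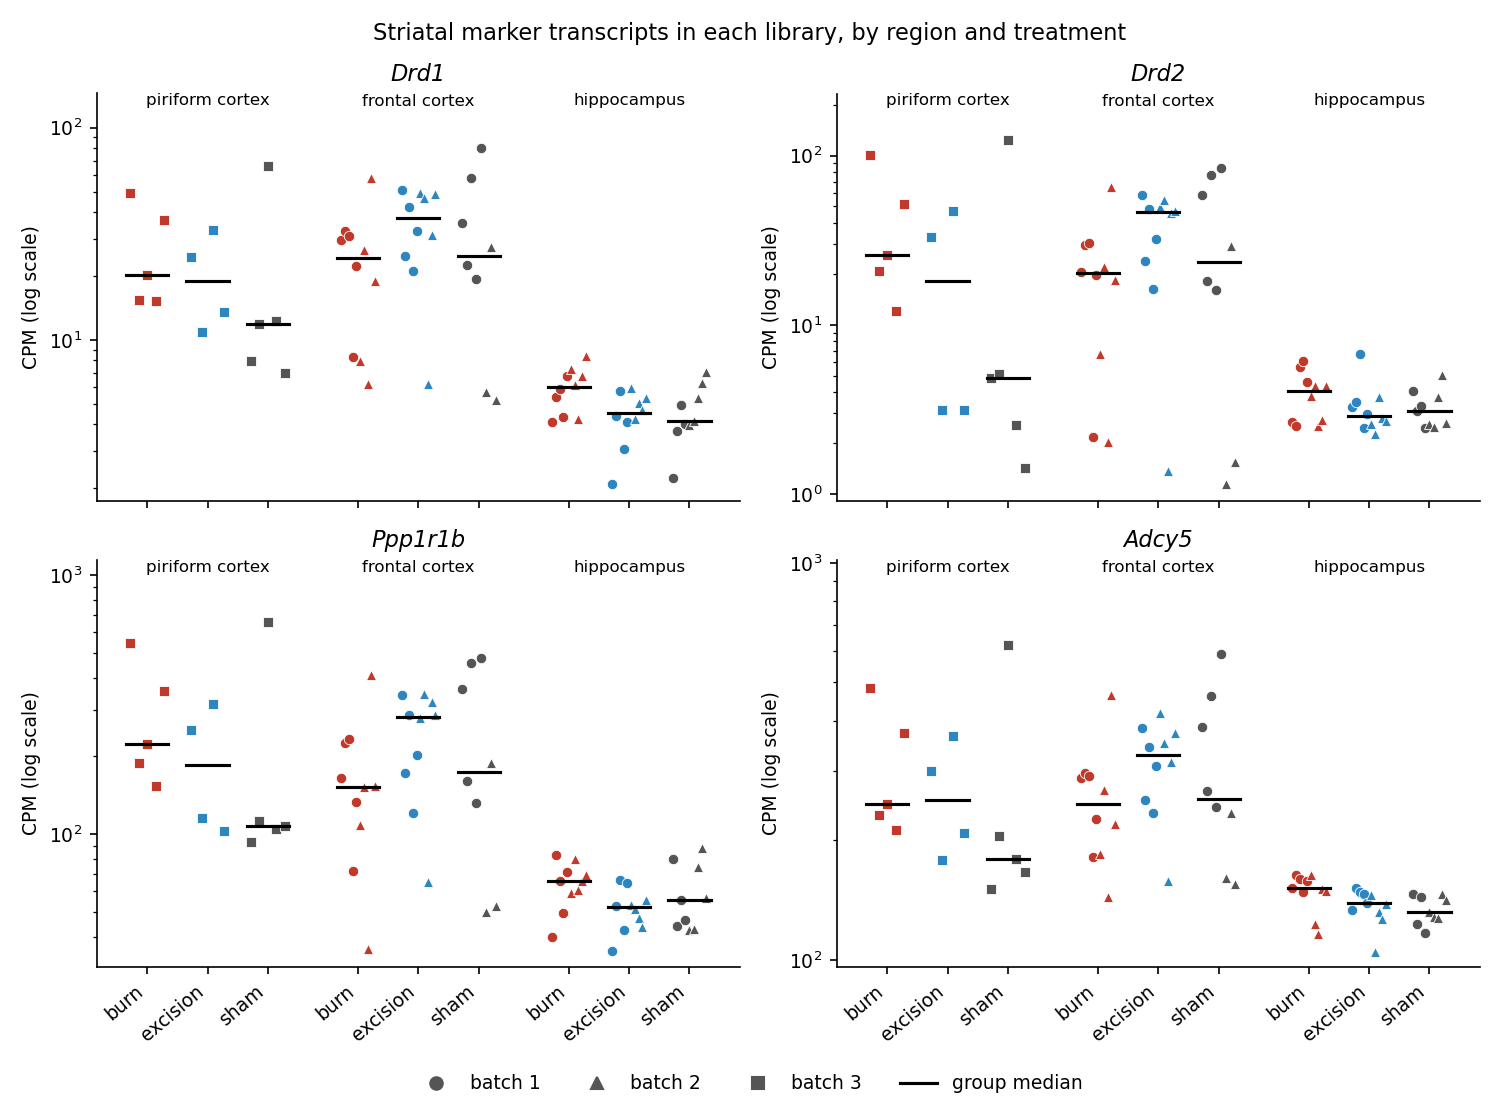
CPM of Drd1, Drd2, Ppp1r1b and Adcy5 in each library (log axis), by region and treatment, with the marker shape giving the batch and a line at the group median. Cortical libraries of 1 treatment spread over much of the range, Drd2 from 1.42 to 123 CPM in the piriform sham group, while hippocampus libraries stay between 2.26 and 6.75 CPM for Drd2.

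Per kilobase of exon, the scale on which genes can be compared, Ppp1r1b and Adcy5 led in every region. Their median levels were 58.3 and 30.9 CPM per kb in the piriform cortex, 61.2 and 38.5 in the frontal cortex, and 19.0 and 20.0 in the hippocampus. The receptors were lower: Drd2 had a median of 6.45 CPM per kb in the piriform cortex, 10.3 in the frontal cortex and 1.21 in the hippocampus. Drd1 had medians of 4.23, 7.84 and 1.37 CPM per kb in the same order of regions, and Adora2a 6.55, 9.65 and 0.560.

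Within a batch, the library-to-library spread of the members was among the widest of all genes in both cortical dissections. In the piriform cortex the SD of log2 CPM was 2.19 for Adora2a and 2.10 for Drd2, which placed them 3rd and 4th of 15576 genes with a mean of at least 1 CPM, where the median gene had an SD of 0.21. Rgs9 (SD 1.42) ranked 26th, Tac1 (1.08) 51st, Pde10a (1.02) 60th, Drd1 (0.97) 69th and Ppp1r1b (0.94) 74th. Adcy5 was the least variable of the 8, with an SD of 0.61 and rank 371. In the frontal cortex the SD was 1.80 for Drd2 (rank 13 of 15511) and 1.48 for Adora2a (rank 37), and 0.51 for Adcy5 (rank 1247), against a median of 0.25 over all genes. The spreads were smaller in the hippocampus, where the median over all genes was 0.20. Adora2a had an SD of 0.77 there (rank 247 of 15965), Drd2 of 0.43 (rank 1389), Drd1 of 0.41 (rank 1535) and Adcy5 of 0.15 (rank 11425). Taking treatment out as well as batch changed these spreads little, with 1.99 for Drd2 in the piriform cortex and 1.73 in the frontal cortex.

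**Figure D2:**
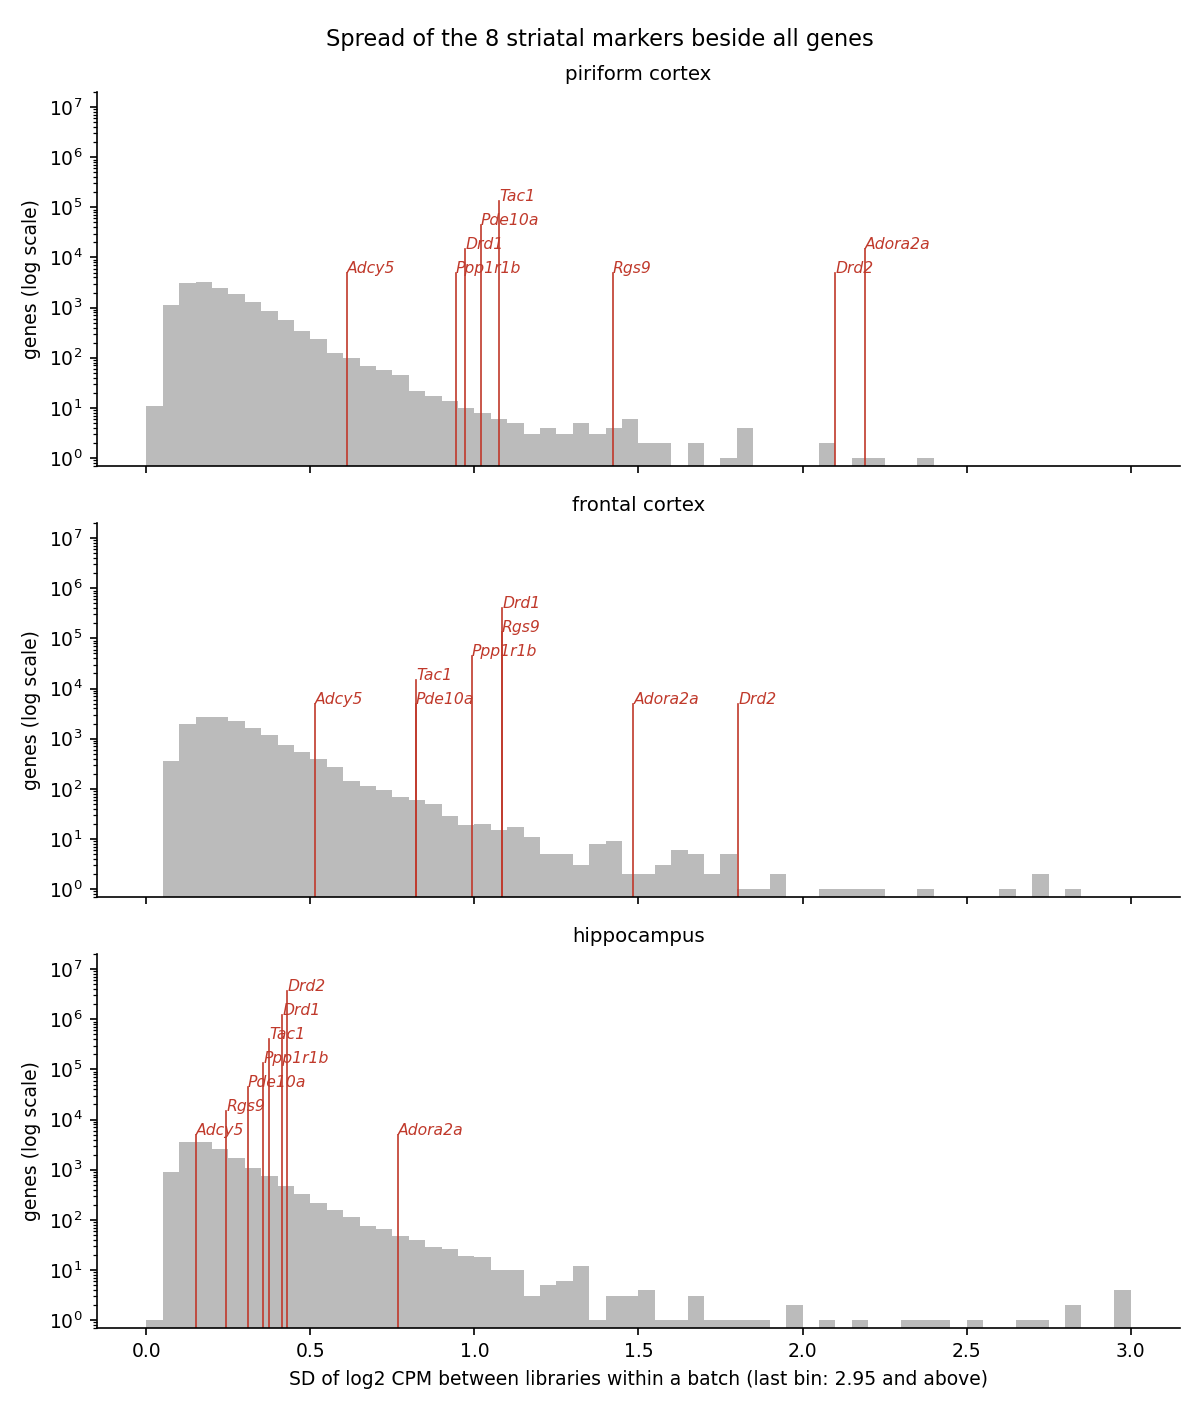
Number of genes (log scale) by the SD of log2 CPM between libraries of a batch, for each region, with the 8 markers as red lines. In the piriform cortex Adora2a (2.19) and Drd2 (2.10) lie at the far right of the distribution, and in the hippocampus Adcy5 (0.15) lies inside its main body.

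The sum of the 8 genes placed the libraries in order. In the piriform cortex the sum was 1701, 1199, 750, 615 and 542 CPM in the burn libraries, 1099, 798, 389 and 374 CPM in the excision libraries, and 2073, 418, 371, 356 and 317 CPM in the sham libraries. Every burn library lay above 4 of the 5 sham libraries, and the remaining sham library, replicate 3, was the highest of all 14. Of the 6 libraries with a low sum, none was burn, 2 were excision (replicates 2 and 4) and 4 were sham (replicates 1, 2, 4 and 5). One of these 4, sham replicate 1, was the library with 429 CPM of hippocampal markers, and another, sham replicate 2, was the library titled excision.

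Frontal cortex sums ran from 265 to 1497 CPM in burn libraries (median 651), from 303 to 1254 in excision libraries (median 1003) and from 292 to 1865 in sham libraries (median 700). The order of the treatments turned over between the batches. In batch 1 the medians were 753 CPM in burn, 833 in excision and 1202 in sham libraries, whereas in batch 2 they were 574, 1171 and 299 CPM. The lowest frontal cortex sums belonged to burn replicate 8 (265 CPM), sham replicates 8 and 6 (292 and 299), excision replicate 8 (303), burn replicate 4 (362) and burn replicate 6 (390). In the hippocampus the sum stayed between 244 and 324 CPM in burn libraries (median 294), 226 and 306 in excision libraries (median 272) and 234 and 322 in sham libraries (median 269).

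**Figure D3:**
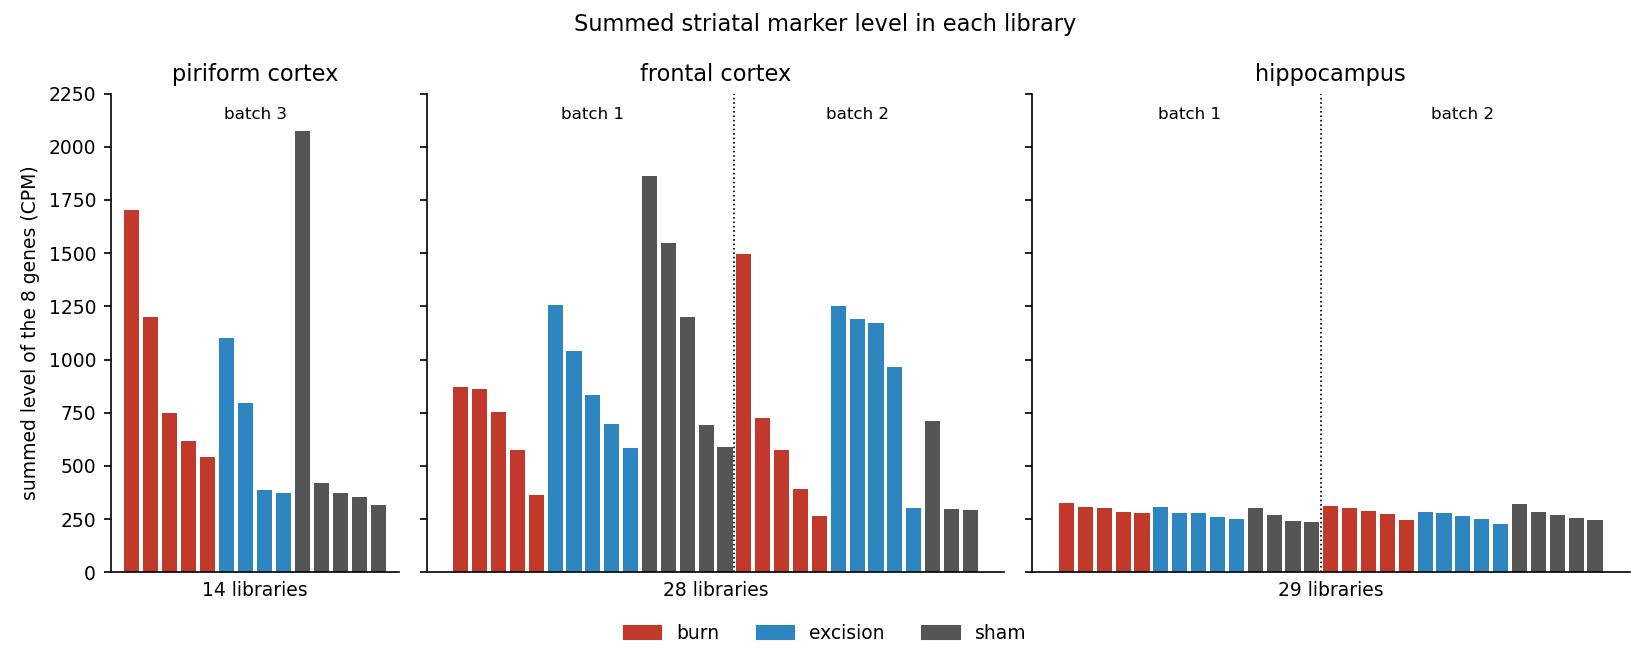
Summed CPM of the 8 genes in each library, in panels by region and batch, with bars coloured by treatment. Piriform sham replicate 3 is the highest bar (2073 CPM), the other 4 piriform sham libraries are among the low ones (317 to 418), and hippocampus bars lie between 226 and 324.

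The highest hippocampus library gives a yardstick from a dissection outside both cortical regions, 6.75 CPM for Drd2. At or below it were 0 of 5 burn, 2 of 4 excision and 4 of 5 sham libraries of the piriform cortex, and 3 of 10 burn, 1 of 10 excision and 2 of 8 sham libraries of the frontal cortex. Frontal cortex burn replicate 6 lay almost on this limit, at 6.74 CPM. The limit itself came from hippocampus excision replicate 3, a library of under 10 M counts. The source of Drd2 in the hippocampus libraries was not tested, so the limit is not known to mark absence of striatal tissue. For Rgs9, whose hippocampus maximum was 18.2 CPM, 6 of 14 piriform and 5 of 28 frontal cortex libraries were at or below it. For Ppp1r1b (88.2 CPM) the counts were 0 of 14 and 5 of 28, and for Tac1 (15.4 CPM) 8 of 14 and 1 of 28. The genes thus placed different numbers of libraries inside the hippocampus range, most in the piriform cortex and fewest in the frontal cortex for Tac1.

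In the cortical dissections the ratio of Drd1 to Drd2 was higher in the library with the lowest sum than in the one with the highest. It was 1.63 in the lowest and 0.539 in the highest piriform library. In the frontal cortex it was 3.78 in the lowest and 0.953 in the highest library of batch 1, and 3.05 and 0.894 in those of batch 2. The hippocampus batches did not share a direction, with 1.22 in the lowest and 2.13 in the highest library of batch 1, and 1.88 and 1.24 in those of batch 2. The median ratio of CPM was 1.03 in the piriform cortex, 1.05 in frontal cortex batch 1 and 1.04 in frontal cortex batch 2. It was 1.25 and 1.67 in hippocampus batches 1 and 2. Exon length is not taken out of this ratio. Per kilobase of exon the median level of Drd2 was above that of Drd1 in both cortical regions. Across libraries the ratio ran from 0.486 to 4.93 in the piriform cortex, and its highest values there (4.31 to 4.93) were those of excision replicate 4 and sham replicates 4 and 5, whose Drd2 levels were 3.15, 2.56 and 1.42 CPM. Drd1 in the same 3 libraries was 13.6, 12.3 and 6.98 CPM, so Drd2 lay below its hippocampus maximum in all 3 while Drd1 lay above its own in 2 of them.

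Across libraries of 1 region and batch, Drd1 varied together with every other member in both cortical dissections. In the piriform cortex (14 libraries) Pearson's r of log2 CPM was 0.91 to 0.98 and Spearman's rho 0.88 to 0.99 for the 7 partners. In the frontal cortex r was 0.90 to 0.96 and rho 0.73 to 0.99 in batch 1 (15 libraries), and r was 0.93 to 0.99 and rho 0.87 to 0.97 in batch 2 (13 libraries). The largest adjusted p was 1.94e-05, 3.5e-05 and 6.36e-05 for r, and 0.00021, 0.00377 and 0.00035 for rho, in these 3 sets (two-sided permutation tests, Benjamini-Hochberg over 35 relations, 1e-05 being the smallest raw p that 100000 resamples can give). Without the 2 libraries farthest from the median Drd1 level, r was 0.86 to 0.97 in the piriform cortex, 0.79 to 0.95 in frontal cortex batch 1 and 0.94 to 0.99 in batch 2, and all 21 stayed below 0.05.

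The libraries fell into a high and a low set by Drd2, so the relation was also computed on either side of the highest hippocampus level. Among the 8 piriform libraries above it r was 0.88 to 0.99, and among the 6 at or below it r was -0.45 to 0.82. All 7 relations passed in the higher set (largest adjusted p 0.0091 by an exact permutation test) and none in the lower set (smallest adjusted p 0.053, exact). By Spearman's rho 1 of the 7 passed in the lower set. The split used Drd2, itself one of the correlated genes, and the 6 lower libraries held only 1.42 to 5.11 CPM of it. Weak correlations can come from so narrow a range and so few libraries. The 2 sets therefore do not test whether the relation changes. Above the limit in the frontal cortex, r was 0.87 to 0.97 in batch 1 (14 libraries, largest adjusted p 0.000355) and 0.86 to 0.98 in batch 2 (8 libraries, 0.00992), with 28 relations in this family. No value was computed for the low frontal cortex libraries, which numbered fewer than 6 in each batch.

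**Figure D4:**
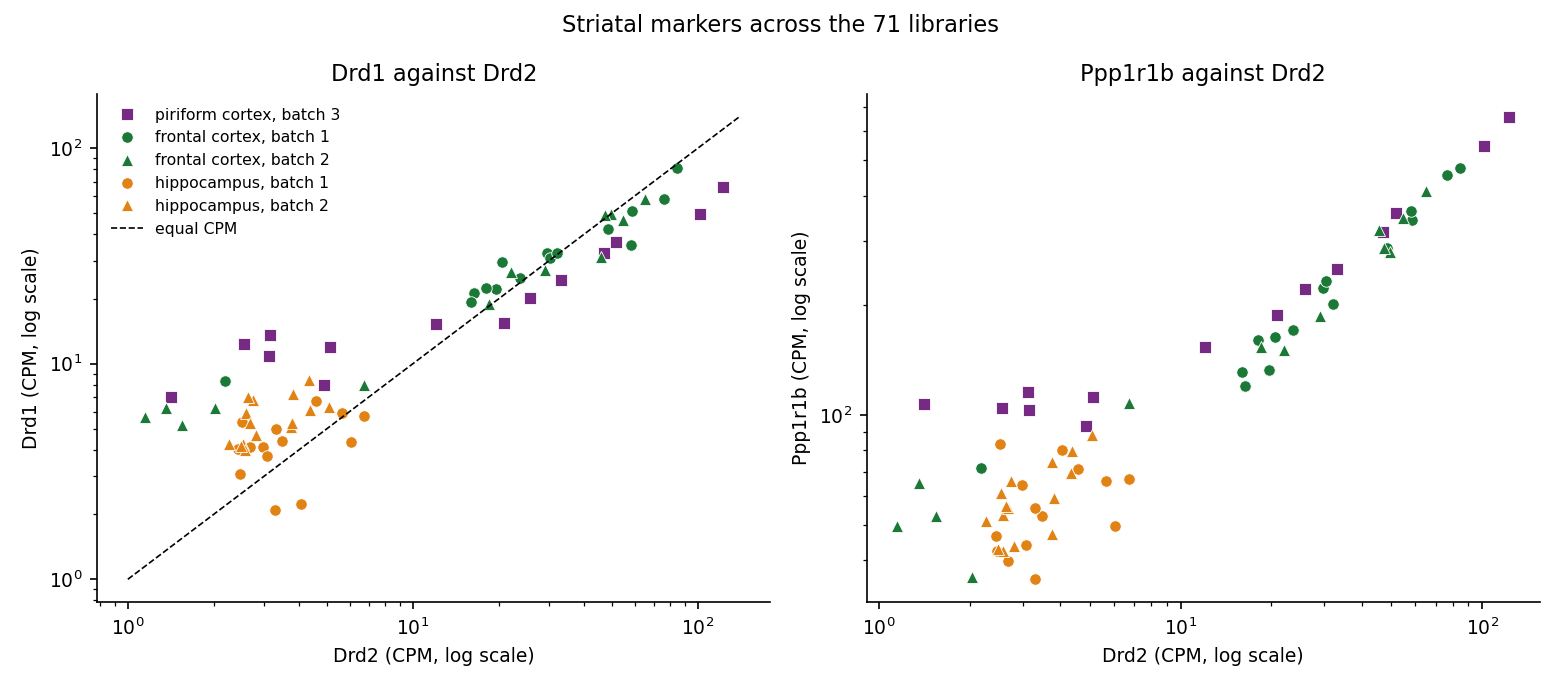
Drd1 (left) and Ppp1r1b (right) on the vertical axis against Drd2 on the horizontal axis, 1 point per library (CPM, log axes), coloured by region and shaped by batch, with a dashed line of equal CPM in the Drd1 panel. Above the hippocampus range the cortical libraries follow a narrow band, and below 6.75 CPM of Drd2 the cortical points scatter above the line of equal CPM.

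In the hippocampus the members were less tied to each other. In batch 1 r ran from -0.48 for Pde10a to 0.86 for Tac1, and 1 of 7 relations passed (3 by rho). In batch 2 r ran from -0.19 for Pde10a to 0.76 for Tac1, and 5 of 7 passed by either measure. Without the 2 farthest libraries 3 of 7 passed in each batch. Tac1 and Drd1 correlated in both batches, with adjusted p of 6.36e-05 and 0.00198 (permutation test), and Pde10a was the member whose correlation was negative in both.

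Among all 23526 genes tested, 76 had a correlation of at least 0.8 with the mean of the 8 members in both the frontal cortex (28 libraries) and the piriform cortex (14 libraries), members included, and 0 had one of -0.8 or less. These coefficients describe likeness within batches, share libraries and depth, and carry no test. Genes outside the list among the 10 most alike, by the lower of the 2 coefficients, included Gpr6 (0.98), Ido1 (0.97), Ankk1 (0.96), Pde1b (0.96), Sh3rf2 (0.96), Ptpn7 (0.96), Slc10a4 (0.95) and Lhx8 (0.95). Gpr6 encodes an orphan receptor known from striatal projection neurons, and Pde1b a calmodulin-dependent phosphodiesterase. Slc10a4 encodes a vesicular protein and Lhx8 a transcription factor, both known from cholinergic neurons. Ankk1 lies on the opposite strand 7016 bases from Drd2 on chromosome 9.

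Both cortical dissections held more of all 8 genes than the hippocampus, and the 2 cortical regions differed in Tac1. In the fit over all 71 libraries all 8 were higher in the frontal cortex than in the hippocampus, where 59.2% of all genes passed the same test in either direction. The differences ran from 1.05 ± 0.12 log2 units (SE) for Adcy5 to 3.13 ± 0.38 for Drd2 and 3.97 ± 0.40 for Adora2a, with a median of 2.15. All 8 were also higher in the piriform cortex than in the hippocampus (background 60.7%), from 0.83 ± 0.25 for Tac1 to 2.93 ± 0.47 for Drd2 and 3.79 ± 0.49 for Adora2a (median 1.90). The median over all genes was 0.01 and 0.02 log2 units in these comparisons. The piriform libraries are all from batch 3 and the hippocampus libraries from batches 1 and 2. Region and batch therefore cannot be told apart in any comparison of the piriform cortex with the hippocampus. All 8 were higher in the frontal cortex in batch 1 alone (57.3% of all genes called) and in batch 2 alone (48.1%). Among sham libraries alone all 8 stayed higher in the frontal cortex than in the hippocampus (38.9% of all genes passed), while 1 of 8, Adora2a, passed between piriform cortex and hippocampus (32.6%).

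Between the piriform and the frontal cortex, 1 of 8 members passed, against 35.7% of all genes. Tac1 averaged 18.3 ± 14.3 CPM in the piriform cortex and 42.6 ± 23.3 CPM in the frontal cortex (SD, n = 14 and 28), a log2 difference of -1.23 ± 0.26 (SE, adjusted p = 0.000111). Drd1, the receptor of the same pathway, differed by -0.41 ± 0.28 (adjusted p = 0.261), and Drd2 by -0.20 ± 0.44 (adjusted p = 0.766). Among sham libraries alone the Tac1 difference was -1.58 ± 0.53 (adjusted p = 0.0614), and 0 of 8 passed against 9.01% of all genes. All piriform libraries are from batch 3, so region and batch cannot be told apart here.

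No member passed the test between treatments in any region, in 72 tests of 8 genes in 9 comparisons. Without adjustment 4 of the 72 had p below 0.05, all in the hippocampus, and DESeq2's Wald test called none either. These 4 were 1 of 8 members for burn minus sham, where 3470 of 19574 genes had such a p, and 3 of 8 for burn minus excision (2790 genes). The groups overlapped for every member in all 9 comparisons, but the share of all genes with overlapping groups was not computed.

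In the piriform cortex the values of burn libraries were higher than those of most sham libraries, and the size of the difference depended on 1 sham library. Drd2 was 101, 51.8, 25.8, 20.8 and 12.0 CPM in burn libraries, 46.7, 33.0, 3.15 and 3.13 CPM in excision libraries, and 123, 5.11, 4.88, 2.56 and 1.42 CPM in sham libraries. All burn libraries were thus above 4 of the 5 sham libraries, and the fifth was above them all. Drd1 was 49.2, 36.7, 20.2, 15.4 and 15.3 CPM in burn libraries, 32.8, 24.5, 13.6 and 10.9 CPM in excision libraries, and 66.2, 12.3, 11.9, 7.97 and 6.98 CPM in sham libraries, the same arrangement. Burn minus sham was 0.65 ± 1.05 log2 units for Drd2 (adjusted p = 0.927), 0.39 ± 0.55 for Drd1 (adjusted p = 0.919) and 0.77 ± 0.53 for Pde10a (adjusted p = 0.884). The median of the 8 was 0.55, against 0.00 over all genes, with 8 of 8 values above 0. The 8 genes moved together across these libraries, so their shared sign does not count as 8 separate observations. The same holds for such counts of members in the other cortical comparisons. Of 21004 genes tested, 0.0% were called in each of the 3 piriform comparisons, and 896 had an unadjusted p below 0.05 for burn against sham.

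Without piriform sham replicate 3 the picture changed in size, and still no member passed. This library was singled out for its high member levels. The larger differences, smaller SE and unadjusted p of the fit without it partly follow from that choice and are no test. Burn minus sham was then 3.58 ± 0.84 for Drd2, 3.63 ± 0.90 for Adora2a and 1.70 ± 0.40 for Pde10a, each with an adjusted p of 0.605, and the median of the 8 was 1.67. The smallest unadjusted p of a member was 0.000601, and 0 of 20981 genes were called. Excision minus sham changed sign with this library, with a median of 1.06 without it and -0.12 with it. Without burn replicate 1, the highest burn library, the burn minus sham median was 0.09. Without sham replicate 1, the library with hippocampal markers, Drd2 differed by 0.38 ± 1.09 (adjusted p = 0.998) and Pde10a by 0.56 ± 0.53 (adjusted p = 0.997).

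Burn minus excision in the piriform cortex was 0.99 ± 1.14 log2 units for Drd2 (adjusted p = 0.813) and 0.91 ± 0.82 for Rgs9 (adjusted p = 0.771), with 8 of 8 values above 0 and a median of 0.67. Excision minus sham was -0.34 ± 1.12 for Drd2 (adjusted p = 0.989) and -0.01 ± 0.38 for Adcy5 (adjusted p = 0.999), with 0 of 8 above 0. With piriform sham replicate 2 taken as excision, as its title has it, the median of the 8 was 0.34 for burn minus sham, 0.85 for burn minus excision and -0.39 for excision minus sham. The 3 comparisons of a region share libraries, so they do not check one another.

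Drd2 in the frontal cortex ran from 2.03 to 65.1 CPM in burn libraries (median 20.1), from 1.36 to 58.6 in excision libraries (median 46.4) and from 1.15 to 84.4 in sham libraries (median 23.5). Tac1 ran from 16.0 to 81.9 CPM in burn libraries (median 29.1), from 16.5 to 76.1 in excision libraries (median 44.0) and from 13.2 to 95.8 in sham libraries (median 38.0). Each group held libraries near the lowest levels of the region, and the highest library was sham for both genes. In the burn group only replicate 9 exceeded 30.3 CPM for Drd2 and 45.5 CPM for Tac1. With batch as a term, burn minus sham was -0.55 ± 0.70 for Drd2 (adjusted p = 0.788), -0.47 ± 0.37 for Tac1 (adjusted p = 0.624) and -0.22 ± 0.24 for Adcy5 (adjusted p = 0.734). All 8 values were below 0, with a median of -0.38 against -0.02 over all 21077 genes, of which 0.28% were called. Burn minus excision had a median of -0.58, again with 8 of 8 below 0 and 0 called (background 0.209%), and the member nearest the threshold was Tac1 at -0.60 ± 0.33 (adjusted p = 0.489). Excision minus sham had a median of 0.15, 8 of 8 above 0 and 0 called (background 0.0%, 1007 genes at an unadjusted p below 0.05).

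Within batches the frontal cortex comparison with sham ran in opposite directions. In batch 1, where Tac1 was 35.4, 29.6, 29.7, 16.0 and 23.5 CPM in burn libraries and 54.6, 34.1, 74.4, 32.1 and 95.8 CPM in sham libraries, Tac1 fell by 1.13 ± 0.31 log2 units in burned mice (adjusted p = 0.042). It was the single member called of 8 in that batch, against 6.5% of 20430 genes, and the median of the 8 was -1.02. In batch 2, where Tac1 was 21.3, 45.5, 17.4, 81.9 and 28.5 CPM in burn libraries and 13.2, 42.0 and 16.0 CPM in sham libraries, burn minus sham was 0.72 ± 0.55 (adjusted p = 0.819). The median of the 8 was 0.86 in batch 2, and 0 members were called, against 0.0% of 21846 genes. Drd2 differed by -1.31 ± 0.58 in batch 1 (adjusted p = 0.155) and by 1.12 ± 1.17 in batch 2 (adjusted p = 0.847).

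The difference between the batches was itself tested. Burn minus sham in batch 2 minus that in batch 1 was 1.83 ± 0.66 log2 units for Tac1 (adjusted p = 0.176), 2.41 ± 1.34 for Drd2 (adjusted p = 0.31) and 1.69 ± 0.90 for Drd1 (adjusted p = 0.29). No gene of 21077 passed this test (0.0%), although 4088 had an unadjusted p below 0.05, and 5 of the 8 members were among those. Excision minus sham likewise had a median of -0.39 in batch 1 and 1.47 in batch 2. Burn minus excision kept its direction, with Drd2 at -0.81 ± 0.57 in batch 1 and -0.79 ± 0.97 in batch 2 (adjusted p = 0.395 and 1). Batch 2 holds the 3 frontal cortex libraries with disagreeing labels, and with the treatments of the titles burn minus sham was 0.02 ± 0.69 for Drd2 (adjusted p = 0.996) and -0.16 ± 0.37 for Tac1 (adjusted p = 0.918). With those treatments the frontal cortex median for burn minus excision was -0.26. Without burn replicate 9, the highest frontal cortex burn library, burn minus excision had a median of -0.91 with 0 members called.

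**Figure D5:**
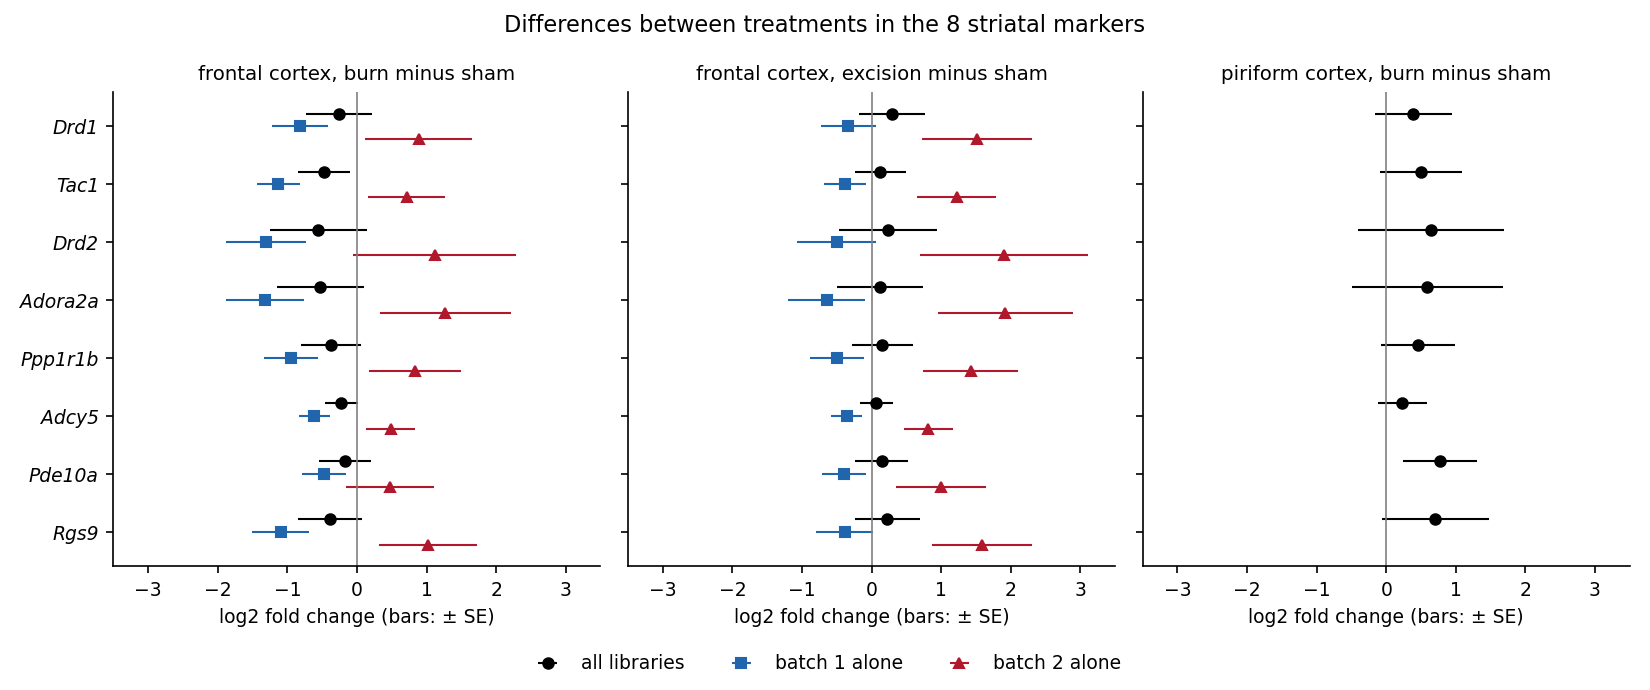
Log2 fold changes with SE for the 8 genes in 3 comparisons, from all libraries (black), batch 1 alone (blue) and batch 2 alone (red). In the frontal cortex the batch 1 values for burn minus sham lie below 0 (median -1.02) and the batch 2 values above 0 (median 0.86), and the pooled values lie between them (median -0.38).

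In the hippocampus the levels of Drd1 overlapped between all 3 treatments. Drd1 ran from 4.12 to 8.36 CPM in burn libraries (median 6.01), from 2.10 to 5.93 in excision libraries (median 4.52) and from 2.22 to 7.03 in sham libraries (median 4.13). Burn minus excision was 0.41 ± 0.15 log2 units for Drd1 (adjusted p = 0.209) and 0.37 ± 0.14 for Tac1 (adjusted p = 0.237), and burn minus sham was 0.34 ± 0.15 for Drd1 (adjusted p = 0.239) and 0.12 ± 0.06 for Adcy5 (adjusted p = 0.293). The groups overlapped for all 8 genes over both batches. Within a batch they did not for Adcy5 in batch 1 (burn minus sham) and Ppp1r1b in batch 2 (burn minus excision). The share of all genes without overlap was not computed, so these cases have no background to be read against. Of 19574 genes, 1.03% were called for burn minus sham, 0.209% for burn minus excision and 0.0% for excision minus sham. Among 8 members 0 were called in any hippocampus comparison within a batch, where the shares of all genes called were 7.09%, 1.05% and 0.0% in batch 1 and 0.156%, 0.0% and 0.00502% in batch 2 for burn minus sham, burn minus excision and excision minus sham. Between the batches 0 of 8 members differed in burn minus sham, against 0.046% of all genes.

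Other striatal genes had medians of the same sign as the members in both cortical regions. A list of 15 further striatal-enriched genes, of which 14 were tested in the frontal cortex and 13 in the piriform cortex, had a median of -0.41 for burn minus sham in the frontal cortex and 0.46 in the piriform cortex. A set of 4 markers of striatal cholinergic interneurons, which release acetylcholine within the striatum, had medians of -0.74 and 0.62. In contrast, 17 partners of dopamine and cyclic AMP signalling, most of them expressed throughout the forebrain, had medians of 0.03 and 0.09. Most of the striatal-enriched and cholinergic genes follow the member mean across the same libraries. For the cholinergic markers the coefficient in the frontal cortex was 0.91 (Slc5a7) to 0.96 (Lhx8). Their shared sign is therefore no separate support. None of the genes of these lists passed between treatments. Against the hippocampus 14 of 14 tested striatal-enriched genes and 4 of 4 cholinergic markers were higher in the frontal cortex, and 13 of 14 and 4 of 4 were higher in the piriform cortex. The partners were mixed: 14 of 17 higher and 1 lower in the frontal cortex, and 10 higher and 2 lower in the piriform cortex. Among the partners Gng7 (0.97), Pde1b (0.96), Gnal (0.88) and Ptpn5 (0.84) had a high coefficient of likeness with the member mean in the frontal cortex, and Prkacb (0.07) and Gnai1 (-0.26) did not. Gnal and Gng7 encode G protein subunits of the striatum, and Ptpn5 encodes striatal-enriched tyrosine phosphatase.

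Markers of other tissues that a dissection could hold did not all follow the members. The cholinergic marker sum ran from 0.614 to 18.1 CPM in the piriform cortex, from 0.582 to 31.9 in the frontal cortex and from 0.333 to 3.61 in the hippocampus. Oligodendrocyte genes had coefficients of likeness of 0.45 to 0.73 in the frontal cortex and 0.34 to 0.48 in the piriform cortex. Choroid plexus genes had 0.02 (Kcnj13) to 0.94 (Clic6) in the frontal cortex and -0.35 (Ttr) to 0.49 (Clic6) in the piriform cortex. Genes of thalamus and septum had -0.38 (Slc17a6) to 0.81 (Prkcd) in the frontal cortex and -0.55 (Slc17a6) to 0.43 (Zic1) in the piriform cortex. Cortical projection neuron markers mostly ran the other way in the frontal cortex, with -0.65 for Cux2 and -0.36 for Rorb, and Foxp2, which striatal projection neurons also express, had 0.74. Th, the tyrosine hydroxylase of dopamine neurons, had -0.15 in the frontal cortex and 0.61 in the piriform cortex. A list of 4 genes of olfactory bulb and piriform neurons summed to 39.1 to 97.7 CPM in the piriform cortex and 43.6 to 556 CPM in the frontal cortex, and its genes had -0.26 to -0.13 with the member mean there. In the hippocampus, markers of hippocampal neurons had coefficients of -0.72 (Prox1) to -0.15 (Fibcd1) with the member mean. For burn minus sham the median log2 difference was -0.20 in the piriform and -0.01 in the frontal cortex for the 6 oligodendrocyte genes, and 0.16 and 0.30 for the 8 cortical projection neuron genes. The sham group of the piriform comparison includes replicate 1, with 429 CPM of summed hippocampal markers against a sham median of 62.8 CPM. The median was -1.05 and -0.36 for hippocampal neuron genes, 0.22 and -0.29 for 6 genes of thalamus and septum, and -0.87 and -0.56 for 6 genes of the choroid plexus. It was -0.02 and -0.60 for the tested midbrain dopamine neuron genes, and 0.21 and -1.15 for those of olfactory bulb and piriform neurons. In the hippocampus the choroid plexus genes had a median of 0.89, with a summed level of 39.6 to 6737 CPM in burn libraries and 40.6 to 5156 CPM in sham libraries. None of the genes of these lists was called between treatments in any region by edgeR. For burn minus sham, an unadjusted p below 0.05 was found for 4 of 5 tested hippocampal neuron genes and 2 of 6 choroid plexus genes in the piriform cortex. In the frontal cortex it was found for 4 of 8 cortical projection neuron genes, 2 of 6 thalamus and septum genes and 1 of 6 hippocampal neuron genes. The part of any of these tissues in the treatment comparisons was not tested.

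Genes called between treatments were set beside the member mean. Of 59 genes called for burn minus sham in the frontal cortex, 0 had a coefficient of 0.5 or more in size with the member mean, which 4.41% of all 23526 genes had. For burn minus excision it was 1 of 44 (2.27%). In the hippocampus it was 22 of 202 for burn minus sham (10.9%) and 6 of 41 for burn minus excision (14.6%), against 8.54% of all genes. None of the called genes was among the 76 striatal-like genes. In the cortex, genes that follow the member mean share its wide spread within treatments and could hardly be called. These counts therefore do not test whether striatal tissue affected the calls. With the mean log2 CPM of the members added to the fit as a covariate, the frontal cortex kept 53 of its 59 calls for burn minus sham among 62, and 34 of 44 among 43 for burn minus excision. The hippocampus kept 90 of 202 for burn minus sham among 98, and 7 of 41 for burn minus excision. Pde10a had a coefficient of -0.37 with the member mean there. For burn minus excision 7 of 8 members were above 0 in the hippocampus, and for burn minus sham 5 of 8. The covariate can thus take up part of a treatment difference. What the lost calls owe to striatal tissue was not tested. The piriform cortex had 0, 1 and 0 calls with the covariate for burn minus sham, burn minus excision and excision minus sham, and 0 in each without it. Genes there with an unadjusted p below 0.05 (edgeR) went from 896 to 2176 for burn minus sham with the covariate. They went from 1658 to 2659 for burn minus excision and from 1102 to 1176 for excision minus sham. The cause of these changes was not tested.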

How the data were processed

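Libraries were read as 100 bp single-end reads, per the labels' protocols. Per the submitters' processing notes, the tools included FastQC 0.11.3, fastp, STAR and DESeq2 1.24.0, with the GRCm38 build, and the authors deposited a table of raw counts per Ensembl gene. The sources used here name no read counter, annotation release or strand setting. Of 55416 identifiers, 52135 matched GENCODE M21, and the others held 0.809% of counts. No 2 libraries were identical.

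From the counts, CPM were computed with TMM factors over all 71 libraries, and log2 CPM with a prior count of 2. Treatments were compared within each region by edgeR 4.0.16 (quasi-likelihood test, filterByExpr, batch as an additive term where a region had 2) in R 4.3.3. Regions were compared in a single fit over all libraries. Benjamini-Hochberg adjustment ran over all genes tested, and a gene was called at an adjusted p under 0.05. Batch differences were tested as an interaction. Correlations used permutation tests in Python 3.11.15 with scipy 1.17.1. Intervals were not computed for single libraries, and precision is that of the replicate spread and the depth given with the results. The fit was tested on simulated counts.

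The 8 members are named in every comparison, with genes from the 10 most like them by the rule stated with the result; some of these 10 are not reported here. Marker lists were other striatal-enriched genes (15), dopamine and cyclic AMP partners (17), striatal cholinergic interneurons (4), midbrain dopamine neurons (4), cortical projection neurons (8), hippocampal neurons (6), thalamus and septum (6), choroid plexus (6), oligodendrocytes (6) and olfactory bulb and piriform neurons (4). Of the 84 list genes 83 were found. The members and lists were chosen with earlier results of these data known. The alternatives tried were DESeq2 1.42.0, its size factors, no count filter, no batch term, single batches, a replicate block, treatments from titles, libraries left out, and sham libraries alone. The correlations on either side of a Drd2 level were added after the data were seen.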

Additional observations from a re-analysis of the deposited data

Results flagged for a closer look

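Of 72 groups of 4 to 10 libraries (8 genes in 9 region and treatment groups), 17 held a library farther from the others than Dixon's criterion allows, in each case the highest. Chance flags about 1 in 20 groups, and the 8 genes move together, so the flags are not separate observations. Piriform cortex sham replicate 3 stood apart for all 8 genes, with 622 CPM of Adcy5, 133 of Adora2a, 66.2 of Drd1, 123 of Drd2, 269 of Pde10a, 659 of Ppp1r1b, 150 of Rgs9 and 51.9 of Tac1. Frontal cortex burn replicate 9 stood apart from the other burn libraries for 7 genes, with 465 CPM of Adcy5, 74.6 of Adora2a, 58.2 of Drd1, 65.1 of Drd2, 412 of Ppp1r1b, 123 of Rgs9 and 81.9 of Tac1. Hippocampus excision replicate 3, a library of under 10 M counts (M for 1e6), stood apart for Adora2a and Drd2, at 6.75 CPM each, from the same number of counts.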

How the results depend on the processing

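The number of members called between treatments was 0 in all 9 comparisons under DESeq2's Wald test, DESeq2 size factors, no count filter, no batch term, treatments from titles, without the libraries whose labels disagree, and with any 1 library left out. In frontal cortex batch 1 alone it was 1, for burn minus sham. Among sham libraries alone 0 members, in place of 1, passed between piriform and frontal cortex, and 1, in place of 8, between piriform cortex and hippocampus; fewer libraries entered those fits. With the replicate block 0 members were called in each treatment comparison, and the piriform burn minus sham median was 0.58. Shared replicate numbers gave no clear pairing of the libraries: 28 of 63 same-numbered pairs correlated above 0.1 (range -0.53 to 0.63), and 22 of 66 libraries correlated best with their own number. The share that unpaired libraries would give was not computed, so pairing is not excluded. With 1 library left out, the median of the 8 members ranged, for burn minus sham, from 0.09 to 1.67 in the piriform cortex, from -0.63 to -0.19 in the frontal cortex and from 0.09 to 0.23 in the hippocampus. For burn minus excision it ranged from 0.24 to 1.20, -0.91 to -0.47 and 0.16 to 0.39, and for excision minus sham from -0.58 to 1.06, -0.05 to 0.39 and -0.15 to 0.00. Among the 6 piriform libraries with low Drd2, the correlation of Drd1 with Adora2a was -0.28 and with Rgs9 -0.45, against positive values in all 14; the cause was not tested. Depth limits the hippocampus most, where Drd2 had as few as 21 counts and Adora2a as few as 9.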
